A study of Mus musculus with 2 samples.

Results

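Cytotoxic lymphocytes kill target cells with the contents of secretory granules, and 8 genes that encode or accompany that equipment were followed here: Gzma, Gzmb, Prf1, Nkg7, Ifng, Tbx21, Klrd1 and Ctsw. They are 8 of the 32285 genes counted, and were chosen by name. They were read in droplet barcodes kept as cells (at least 1500 unique molecular identifiers, UMIs, and at most 20% mitochondrial UMIs) that were sorted by other genes into 3 sets. A barcode was T-gated with 2 or more of the T cell receptor subunit genes Cd3e, Cd3d and Cd3g. It was NK-gated with Ncr1 or Klrb1c, which encode natural killer (NK) receptors, and no Cd3 gene. All remaining kept barcodes formed the third set.

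The study profiled cells of the mouse aorta by droplet single-cell RNA sequencing with the Chromium 3' v3 chemistry. It has 2 samples, 1 labelled HFD and 1 labelled MSC_ITGB3. Both came from ApoE-/- mice, 20-week old, so the loss of apolipoprotein E, which makes mice prone to atherosclerosis, is shared by both groups. The number of animals behind a sample, their sex, and the regimen behind either label are unknown from the sources used here. The deposited counts hold 2 libraries, told apart by the barcode's suffix, and nothing ties a suffix to a sample. They are called library 1 and library 2, neither is assigned a label, and paired values are for library 1 and then library 2. With 1 library per sample there is no replicate and no p-value, and each bracketed range is an exact 95% interval for the counting of UMIs alone. A ratio between libraries therefore describes these 2 libraries and not the labelled groups.

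Granzymes are serine proteases that enter a target cell through pores made by perforin and start its death. CD8 T cells and NK cells make them under transcription factors that include T-bet and RUNX3, and release interferon gamma as well. In atherosclerotic vessels such lymphocytes are a minority among muscle, fibroblast, endothelial and myeloid cells.

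The libraries held 110257209 and 124266676 UMIs, of which 81.76% and 67.42% lay in the 11852 and 17366 kept barcodes, at median depths of 3230 and 2439 UMIs. The T gate held 244 and 235 barcodes, or 2.059% (1.811 to 2.331) and 1.353% (1.187 to 1.536) of the kept ones, with median depths of 4912 and 3973 UMIs. The NK gate held only 21 and 11 barcodes, 0.1772% (0.1097 to 0.2707) and 0.06334% (0.03162 to 0.1133), with median depths of 8071 and 3122 UMIs. All 13 genes of the T cell marker list were found in T-gated barcodes of both libraries. All 8 NK markers were found in NK-gated barcodes, which held 0 UMIs of Cd8a and Cd8b1. Many gated barcodes also carried RNA of the vessel wall or of myeloid cells. Of the T-gated ones 143 and 174, and of the NK-gated ones 15 and 8, had 2 or more genes of at least 1 non-lymphoid marker list. The lists include a plasmacytoid dendritic cell list, which 35 and 35 T-gated and 8 and 4 NK-gated barcodes reached. Its genes Siglech and Cox6a2 were at 0 in both gates, and 31.97% and 18.42% of all other barcodes reached it too. A barcode counted through that list alone therefore need not carry wall or myeloid RNA. The fibroblast list, however, was reached by 107 and 154 T-gated and 9 and 6 NK-gated barcodes. The smooth muscle list was reached by 83 and 122 and by 8 and 5. In T-gated barcodes the 5 smooth muscle markers summed to 1540 and 6000 CPM (a gene's UMIs per 1000000 UMIs of the set), the 5 fibroblast markers to 3958 and 4967 CPM, the 7 macrophage markers to 166.8 and 404.9 CPM, and the 5 endothelial markers to 1008 and 382.8 CPM. The B cell marker Ms4a1 was at 0 in the T gate of both libraries, and all 7 mast cell and basophil markers were at 0 there. Type 2 innate lymphoid markers, several of which T cells share, stood at 628.7 and 1176 CPM in the T gate, and 8 of the 13 T cell markers had UMIs in each NK gate. The libraries shared 84 kept barcode sequences, 0 of them in either gate.

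The promoters of 6 of the 8 genes could be read, from 250 bases before to 50 after the start of the RefSeq gene on GRCm38.p6. Those of Gzma, Gzmb, Prf1 and Nkg7 are shown because these genes were found together in single barcodes, and because Gzma and Gzmb, both granzymes, differed in how they were distributed. Capitals mark 3 motifs searched on both strands, none overlapping another in these windows: TGTGGT, bound by RUNX factors, AGGAAGT, bound by ETS factors, and GGTGTGA, bound by T-box factors such as T-bet. Sequences run 5' to 3' along the gene.
Gzma: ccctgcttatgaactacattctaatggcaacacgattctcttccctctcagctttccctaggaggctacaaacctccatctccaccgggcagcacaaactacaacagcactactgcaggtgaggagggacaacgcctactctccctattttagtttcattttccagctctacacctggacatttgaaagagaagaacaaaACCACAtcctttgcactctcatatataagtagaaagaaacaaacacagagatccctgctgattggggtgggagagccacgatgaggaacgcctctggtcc
Gzmb: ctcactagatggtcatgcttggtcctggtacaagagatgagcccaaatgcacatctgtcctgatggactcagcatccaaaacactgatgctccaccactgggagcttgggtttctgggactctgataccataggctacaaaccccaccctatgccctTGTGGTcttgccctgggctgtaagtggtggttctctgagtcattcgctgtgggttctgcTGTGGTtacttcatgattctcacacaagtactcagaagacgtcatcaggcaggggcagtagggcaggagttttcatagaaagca
Prf1: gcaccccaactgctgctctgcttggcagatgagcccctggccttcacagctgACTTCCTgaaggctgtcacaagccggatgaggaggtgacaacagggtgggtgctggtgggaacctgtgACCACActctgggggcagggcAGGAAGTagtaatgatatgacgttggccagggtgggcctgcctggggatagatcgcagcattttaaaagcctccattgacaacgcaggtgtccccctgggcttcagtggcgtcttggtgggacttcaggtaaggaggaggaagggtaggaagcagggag
Nkg7: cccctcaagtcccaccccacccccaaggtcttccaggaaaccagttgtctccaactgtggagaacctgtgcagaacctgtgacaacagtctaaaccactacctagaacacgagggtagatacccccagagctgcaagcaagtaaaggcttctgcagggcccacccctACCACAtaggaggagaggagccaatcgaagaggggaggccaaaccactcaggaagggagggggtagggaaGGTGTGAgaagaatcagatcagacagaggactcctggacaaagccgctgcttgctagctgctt

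These windows are chr13:113100932-113101231 on the minus strand for Gzma, chr14:56262285-56262584 on the minus strand for Gzmb, chr10:61297586-61297885 on the plus strand for Prf1 and chr7:43436888-43437187 on the plus strand for Nkg7. The RUNX letters were in these 4 of the 6 windows read, and not in those of Ifng and Tbx21, against 16.76% of 32851 promoters of the same length. Gzma had 1 match, starting at position -50 from the gene's start, and Gzmb had 2, at -93 and -34. Prf1 had 1 at -130, and Nkg7 had 1 at -83. The T-box letters, found in 3.979% of promoters, were in Nkg7 alone of the 6 windows, at -13. The ETS letters, found in 9.351%, were in Prf1 (at -198 and -109) and in Tbx21 (at -244). The Ifng window held none of the 3. A match is a string of letters and was not tested as a binding site.

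In the annotation of GRCm38, Gzma (ENSMUSG00000023132) spans 113093825 to 113100981 on chromosome 13, Gzmb (ENSMUSG00000015437) 56258838 to 56262260 on chromosome 14, and Prf1 (ENSMUSG00000037202) 61297833 to 61304680 on chromosome 10. Nkg7 (ENSMUSG00000004612) spans 43437073 to 43438249 on chromosome 7, Ifng (ENSMUSG00000055170) 118441046 to 118445892 on chromosome 10, and Tbx21 (ENSMUSG00000001444) 97098071 to 97115331 on chromosome 11. Klrd1 (ENSMUSG00000030165) spans 129591782 to 129598775 on chromosome 6 and Ctsw (ENSMUSG00000024910) 5465043 to 5468507 on chromosome 19. All 8 are protein-coding. For Nkg7 and Gzmb, and by a few bases for Prf1, these starts differ from the RefSeq starts from which the motif positions were counted. The T-box letters of Nkg7 therefore lie inside its annotated span.

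The first question was where the transcripts of these genes lay. The gated barcodes held 77.79% (76.63 to 78.92) and 66.16% (64.39 to 67.9) of the 8 genes' UMIs in kept barcodes, although T-gated and NK-gated barcodes held only 1.929% plus 0.24%, and 1.615% plus 0.07121%, of all kept UMIs. Ifng, the gene of interferon gamma, had 90.41% and 75.49% of its UMIs inside the gates. Gzma was at 85.82% and 84.31%, and Nkg7, which encodes a membrane protein of the granule, at 88.36% and 73.04%. Gzmb was at 81.16% and 61.69%, Prf1, the perforin gene, at 81.89% and 74.32%, and Ctsw, a cathepsin gene of T and NK cells, at 78.83% and 62.19%. Tbx21, which encodes T-bet, was at 71.17% and 51.52%. Klrd1, which encodes the CD94 receptor chain, was the exception, with 33.52% (30.07 to 37.1) and 42.89% (38.37 to 47.5). Of all 8-gene UMIs, 4.897% and 10.12% lay just outside the T gate, in the 257 and 463 barcodes with exactly 1 Cd3 gene, where their level was 225.4 and 185.3 CPM.

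Summed over the 8 genes, the level was 1574 and 1264 CPM in T-gated barcodes, 5857 and 2883 CPM in NK-gated barcodes and 12.96 and 11.69 CPM in all others. The NK level was thus 3.722-fold (3.479 to 3.98) and 2.28-fold (1.938 to 2.668) that of T-gated barcodes. That excess was mostly Gzma: without it the ratio was 1.532 (1.382 to 1.695) and 1.408 (1.144 to 1.715). Leaving out the barcode richest in the 8 genes in each gate gave 3.0 and 1.311, so in library 2 much of the sum came from 1 of 11 barcodes.

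**Figure D1:**
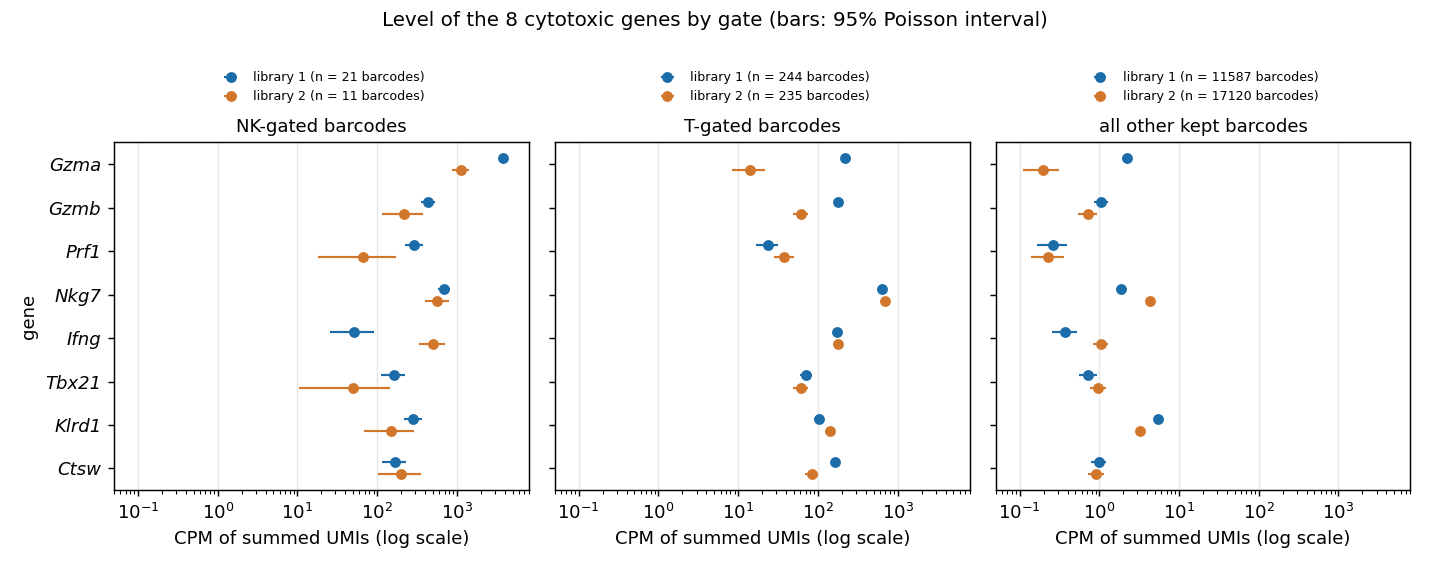
Level of each of the 8 genes, as CPM of summed UMIs on a log axis, in NK-gated, T-gated and all other kept barcodes of library 1 (blue) and library 2 (orange), with 95% Poisson intervals that cover counting error only. Gzma stands at 3777 and 1123 CPM in the NK gate and at 215.7 and 14.04 CPM in the T gate, and Klrd1 is the highest of the 8 among the other barcodes of library 1.

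Gzma, which encodes granzyme A, had the largest NK to T ratio of the 8 in both libraries. Its level was 3777 CPM (3522 to 4045) and 1123 CPM (870.3 to 1426) in NK-gated barcodes, against 215.7 CPM (194.4 to 238.7) and 14.04 CPM (8.453 to 21.93) in T-gated ones, a ratio of 17.51 (15.48 to 19.84) and 79.98 (47.47 to 141). The UMIs were unevenly spread. In library 1, 11 of 21 NK-gated barcodes had any Gzma, and 2 of them held 258 and 253 of the 817 UMIs. These 2 had 5 and 3 of the 8 NK markers and 7 and 5 of the 13 T cell markers, though no Cd3 gene. Over the 21 barcodes the number of T cell markers ran from 0 to 7. Whether such barcodes are NK cells was not tested. In library 2, 4 of 11 barcodes had Gzma, and 1 held 46 of 67 UMIs, without which the level was 471.8 CPM.

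Prf1 was higher in the NK gate of library 1, at 291.3 against 23.58 CPM (12.35-fold, 8.204 to 18.77). In library 2 the NK value rested on 4 UMIs in 2 barcodes, at 67.04 against 37.69 CPM (ratio 1.779, 0.4669 to 4.84). Gzmb, the gene of granzyme B, stood at 439.2 and 217.9 CPM in NK-gated and 178.3 and 60.59 CPM in T-gated barcodes, ratios of 2.463 (1.936 to 3.109) and 3.596 (1.837 to 6.496). In library 2, 10 of its 13 NK UMIs lay in 1 barcode. Both genes of the killing machinery were thus higher in the NK gate of library 1 by more than counting error, while Prf1 in library 2 could not be placed at this depth.

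None of the other members was higher in the NK gate of both libraries by more than counting error. Nkg7 stood at 688.8 and 569.8 CPM in NK-gated barcodes and 643.7 and 689.4 CPM in T-gated ones, with ratios of 1.07 (0.8959 to 1.271) and 0.8265 (0.5689 to 1.163). Ctsw was at 166.4 against 165.7 CPM in library 1 (ratio 1.005, 0.6898 to 1.424) and at 201.1 against 83.5 CPM in library 2 (2.409, 1.209 to 4.375), where 8 of 12 NK UMIs came from 1 barcode. Klrd1 was at 282 against 103.5 CPM (2.724, 2.003 to 3.66) and 150.8 against 142.6 CPM (1.058, 0.4764 to 2.05). Tbx21 was at 161.8 against 70.75 CPM (2.287, 1.524 to 3.353) and 50.28 against 60.59 CPM, the last from 3 UMIs. Ifng was lower in the NK gate of library 1, at 50.85 against 172.6 CPM (0.2947, 0.1455 to 0.5349), and higher in that of library 2, at 502.8 against 175.9 CPM (2.859, 1.887 to 4.19). However, 26 of those 30 UMIs lay in 1 barcode, and without the barcode richest in the 8 genes the library 2 ratio was 0.5849.

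Counted against all genes, 5 of the 8 members were at least 1.5-fold higher in the NK gate in library 1, where 14.5% of 5854 tested genes were. Ifng alone was at least 1.5-fold lower, against 23.7% of genes. In library 2 the numbers were 5 higher, against 18.4% of 4829 genes, and 0 lower, against 32.7%. The median ratio was 2.375 and 2.094 over the 8 members and 0.9517 and 0.9258 over all tested genes. Gzma, Gzmb and Prf1 were among the 5 in both libraries, while Tbx21 and Klrd1 completed the count in library 1, and Ifng and Ctsw in library 2. The library 2 count rested on single barcodes. Without the barcode richest in each gene in both gates, Gzma and Gzmb, on 21 and 3 NK UMIs, were still at least 1.5-fold higher there. Gzmb was so only just, at 1.539 (0.3085 to 4.722). Prf1, Ifng and Tbx21, on 1, 4 and 2 NK UMIs, were at least 1.5-fold lower. Of these genes, only Gzma had an interval that excluded 1. In library 1 the count stayed at 5 higher and 1 lower.

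Single barcodes show what the sums hide. NK-gated barcodes were divided into 2 groups by the number of gate UMIs, the sum of Ncr1 and Klrb1c, a division made after the values were seen. The 13 and 5 barcodes with 2 or more gate UMIs all had at least 2 of the 8 genes, and 10 and 3 of them had 5 or more. Their 8-gene level was 8108 and 5860 CPM. The 8 and 6 barcodes with a single gate UMI had 304.5 and 312.3 CPM. Of these, 3 and 1 had 2 or more of the 8 genes, and 1 and 1 had 5 or more. The remaining 5 and 5 had none of the 8 genes. Each of those 10 barcodes without a member had 2 or more genes of a non-lymphoid list, and 2 and 1 of them had 3 or more macrophage markers. Counting only barcodes with 2 or more gate UMIs as NK raised the NK to T ratio to 5.152 and 4.635.

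**Figure D2:**
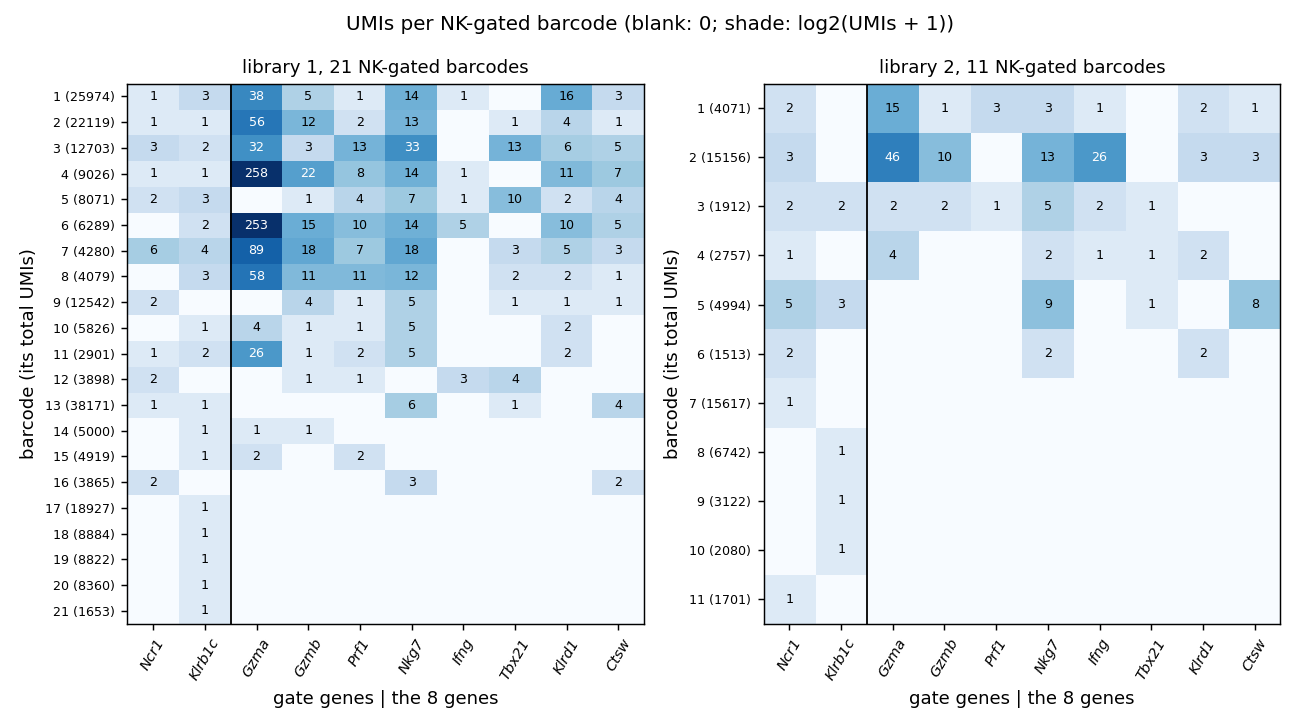
UMIs of the gate genes Ncr1 and Klrb1c and of the 8 genes in each of the 21 and 11 NK-gated barcodes, ordered by the number of the 8 genes found, with each barcode's total UMIs beside it (blank cells are 0, and the shade follows log2(UMIs + 1)). Barcodes at the bottom have 1 gate UMI and none of the 8 genes, and Gzma reaches 258 UMIs in 1 barcode.

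Within library 1, 12 of the 13 NK-gated barcodes with Gzmb also had Prf1, and 10 of the 11 with Gzma had Gzmb. All 11 barcodes with Klrd1 had Gzmb, Prf1 and Nkg7. In library 2, all 3 barcodes with Gzmb had Gzma, and both barcodes with Prf1 had Gzmb. No NK-gated barcode had all 8 genes, while 8 and 1 had 7. Gzma was found in 4 of the 8 barcodes with Tbx21 in library 1, and the barcodes with 258 and 253 Gzma UMIs had 0 of Tbx21.

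NK-gated barcodes carried other NK genes that T-gated ones lacked. Klra8, which encodes an activating receptor of the Ly49 family, had 43 and 11 UMIs in NK-gated and 0 and 0 in T-gated barcodes, and Klra4 had 34 and 5 against 0 and 0. The adaptor genes Fcer1g (1077 and 921.8 CPM against 40.27 and 91.63) and Tyrobp (1073 and 603.4 against 31.64 and 90.15) and the chemokine gene Xcl1 (785.9 and 670.4 against 145.5 and 41.38) were higher in the NK gate, and myeloid cells also express both adaptor genes. Granzyme C transcripts (Gzmc) were found in 3 NK-gated barcodes of library 1, with 10 UMIs. Cma1, best known as a mast cell chymase, had 16 UMIs in 5 NK-gated barcodes of library 1 and 2 UMIs in 1 of library 2, all with Gzma, while the other 6 mast cell and basophil markers were at 0 there. Klra8, Klra4, Gzmc and Cma1 were picked after their values were seen.

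T-gated barcodes held more UMIs than NK-gated ones of every member except Gzma in both libraries and Prf1 in library 1. Nkg7 was the member most often found, in 63.52% and 40.85% of them, with a median of 5 and 7 UMIs where present. Ctsw was in 54.92% and 24.68%, Klrd1 in 29.51% and 22.13%, Ifng in 29.1% and 25.11%, Tbx21 in 27.87% and 18.3% and Gzmb in 27.05% and 10.21%. Gzma was in 14.34% and 2.553%, and Prf1 in 13.52% and 9.362%. By CPM, the order in library 1 was Nkg7, Gzma, Gzmb, Ifng, Ctsw, Klrd1, Tbx21 and Prf1, in which neighbours from Gzma to Ctsw had overlapping intervals. In library 2 it was Nkg7, Ifng, Klrd1, Ctsw, Gzmb and Tbx21 at the same level, Prf1 and Gzma, in which Ifng and Klrd1 overlapped, as did neighbours from Ctsw to Prf1. Gzma thus stood second in library 1 and last in library 2. These are 3' counts, 1 per molecule, so transcript length does not enter them. Barcodes with 3 or more fibroblast markers and no Cd3 gene, Ncr1 or Klrb1c served as the background. Leaving out barcodes with a gate gene can lower it. They numbered 8411 and 14125 of the 11587 and 17120 other barcodes, and those marked for smooth muscle in the same way 5722 and 11761. The 2 groups overlap, so a fibroblast-marked barcode need not be a fibroblast. At median depths of 3009 and 2371 UMIs, Nkg7 was found in 0.9274% and 1.012% of fibroblast-marked barcodes. Gzma was in 0.5588% and 0.02124%, and Ifng in 0.1427% and 0.3115%.

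Thinning each barcode to 1500 UMIs lowered these shares but left them above that background. After thinning, Nkg7 was found in 49.18% and 29.36% of T-gated barcodes, Ctsw in 24.59% and 11.49%, Gzmb in 13.52% and 5.106% and Prf1 in 4.098% and 4.255%. No kept barcode was too shallow for it.

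The division of T-gated barcodes by coreceptor gives the clearest order among the members. Barcodes with Cd8a or Cd8b1 and no Cd4 numbered 131 and 68, or 53.69% (47.21 to 60.07) and 28.94% of the T gate. Those with Cd4 alone numbered 27 and 19, those with both 4 and 2, and those with neither 82 and 146, or 33.61% and 62.13%. In CD8 barcodes Nkg7 was found in 88.55% and 91.18%, against 29.63% and 47.37% of CD4 barcodes, and its level was 7.616-fold (5.237 to 11.52) and 6.794-fold (4.694 to 10.21) higher. Klrd1 was found in 45.8% and 60.29% of CD8 barcodes and had 1 and 1 UMI in CD4 barcodes. Gzmb stood at 253.5 and 154.9 CPM in CD8 and 35.26 and 8.37 CPM in CD4 barcodes (7.189-fold, 3.595 to 16.82, and 18.51-fold, 3.224 to 740.6), the CD4 values coming from 1 barcode each. Gzma had 336 and 5 UMIs in CD8 barcodes and 0 and 0 in CD4 barcodes, so its CD8 level in library 1 was at least 24.4-fold higher, taking the limit of 3 counts summed over the CD4 barcodes for a count of 0. Of Prf1, CD8 barcodes held 37 and 47 UMIs and CD4 barcodes 1 and 0. Ctsw stood at 207.4 and 148.8 CPM in CD8 and 70.52 and 83.7 CPM in CD4 barcodes (2.941-fold, 1.77 to 5.237, and 1.778, 0.9139 to 3.863).

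For Ifng and Tbx21 the CD8 and CD4 levels lay closer together. Ifng stood at 207.4 and 332.3 CPM in CD8 and at 149.9 and 200.9 CPM in CD4 barcodes (ratios 1.384, 0.9607 to 2.05, and 1.654, 1.074 to 2.656). Tbx21 stood at 77.77 and 73.39 against 70.52 and 58.59 CPM (1.103, 0.6398 to 2.02, and 1.253, 0.5498 to 3.335). Ifng was found in 36.64% and 54.41% of CD8 and in 44.44% and 31.58% of CD4 barcodes. The CD4 barcodes number so few that these intervals allow a 2.02-fold and a 3.335-fold higher Tbx21 level in CD8 barcodes.

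**Figure D3:**
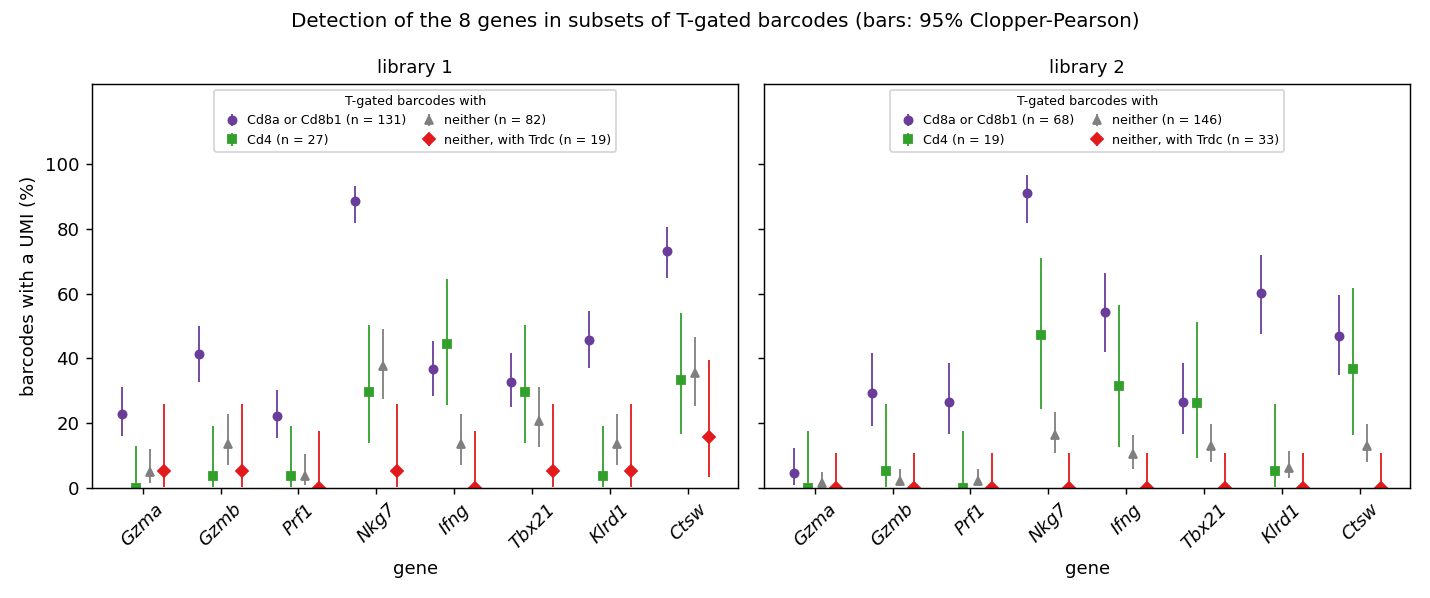
Percent of T-gated barcodes with a UMI of each of the 8 genes, by coreceptor subset and library, with 95% Clopper-Pearson intervals; the barcodes with Trdc are also part of those with neither coreceptor. CD8 barcodes are highest for Nkg7 at 88.55% and 91.18%, and all 8 genes are at 0 in the 33 Trdc barcodes of library 2.

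T-gated barcodes with neither coreceptor were of different kinds. In 19 and 33 of them Trdc was found, the constant-region gene of the gamma delta receptor's delta chain. The 33 of library 2 held 208805 UMIs and not 1 UMI of any of the 8 genes, which allows a share of up to 9.091% of such barcodes with a UMI and a level of up to 14.37 CPM per gene. In library 1, 5 of 19 had a member, and Gzma accounted for 32 UMIs, all in 1 barcode. These barcodes instead carried genes of the gamma delta cells that make interleukin 17: Cd163l1 was in 17 of 19 and 23 of 33, Il23r in 15 and 23, and Il17a in 10 and 16. The Trdc division and these 3 genes were chosen after values were seen. Of the remaining 63 and 113 barcodes with neither coreceptor nor Trdc, 43 and 48 had at least 1 member, or 68.25% (55.31 to 79.42) and 42.48% (33.23 to 52.13), at median depths of 4304 and 3012 UMIs. A missing coreceptor UMI at that depth does not show that a cell lacks the receptor.

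Between libraries, the largest difference among the 8 genes in the T gate was that of Gzma. It had 375 UMIs in 35 barcodes of library 1 and 19 UMIs in 6 barcodes of library 2, that is 215.7 and 14.04 CPM, a ratio of library 2 to library 1 of 0.06509 (0.03875 to 0.1031), or 15.36-fold lower. Within CD8 barcodes it was 322.6 and 10.19 CPM, 31.65-fold lower in library 2. After thinning, 94 and 0 UMIs remained there. Without CD8 barcodes that held 2 or more genes of a non-lymphoid list, Gzma stood at 549.8 and 41.43 CPM over 64 and 20 barcodes, 13.27-fold lower. Without the CD8 barcode richest in Gzma in each library it stood at 269.2 and 4.112 CPM. The same direction held in all other kept barcodes, at 2.234 and 0.1942 CPM, and in the NK gate (ratio 0.2973, 0.2282 to 0.3817). Gzma was thus lower in library 2 in each of these sets.

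Gzmb and Ctsw were also lower in the T gate of library 2, Gzmb at 178.3 and 60.59 CPM (0.3398, 0.2631 to 0.4348) and Ctsw at 165.7 and 83.5 CPM (0.504, 0.4018 to 0.6287). The share of CD8 barcodes was lower there too, and within CD8 barcodes the ratios were nearer to 1, at 0.6112 (0.4672 to 0.7917) for Gzmb and 0.7176 (0.5426 to 0.9398) for Ctsw. After thinning, the CD8 ratios were 0.815 (0.4714 to 1.366) and 0.6 (0.3385 to 1.018). Prf1 went the other way, at 23.58 and 37.69 CPM in the T gate (1.598, 1.039 to 2.472) and 35.52 and 95.81 CPM in CD8 barcodes (2.697, 1.716 to 4.268). Without the barcode richest in Prf1 the CD8 ratio was 2.261 (1.365 to 3.754).

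Nkg7, Ifng, Klrd1 and Tbx21 had ratios of 1.071, 1.019, 1.377 and 0.8564 over the T gate. Except for Tbx21, their CD8 levels differed more. Nkg7 was at 939.9 and 1649 CPM there (1.755, 1.597 to 1.928), Klrd1 at 154.6 and 360.8 CPM (2.334, 1.875 to 2.908) and Ifng at 207.4 and 332.3 CPM (1.602, 1.299 to 1.973), while Tbx21 was at 77.77 and 73.39 CPM. In barcodes with neither coreceptor the same genes were lower in library 2, with ratios of 0.4258 for Nkg7, 0.4532 for Klrd1 and 0.6275 for Ifng. Library 2 thus had higher CPM of Nkg7, Klrd1 and Ifng in CD8 barcodes and a smaller share of such barcodes in its T gate, whose median depth was also lower. Over the 64 and 20 CD8 barcodes without 2 or more genes of any non-lymphoid list, the ratios were 1.665 (1.435 to 1.929) for Nkg7, 2.178 (1.519 to 3.1) for Klrd1, 1.435 (1.04 to 1.958) for Ifng, 1.985 (0.8535 to 4.39) for Prf1 and 1.029 (0.6883 to 1.504) for Ctsw. Smooth muscle, fibroblast and macrophage markers, which were higher and endothelial markers lower in the T gate of library 2, moved with these comparisons, and their part was not tested further.

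Over the T gate, 1 of 8 members (Prf1) was at least 1.5-fold higher in library 2, against 10.4% of 7548 tested genes, and 3 of 8 (Gzma, Gzmb and Ctsw) at least 1.5-fold lower, against 7.39%. Without the barcode richest in each gene the 3 stayed lower, and Prf1 fell short of 1.5-fold, at 21.39 and 28.95 CPM (1.353, 0.8407 to 2.182). Its ratio was also 1.34 with 1 or more Cd3 genes required and 1.048 without barcodes that held 2 or more genes of a non-lymphoid list. The median ratio was 0.9378 over the members and 1.028 over all genes. The 8-gene sum was 0.8034 (0.7558 to 0.8537) of that of library 1, 0.9206 (0.8644 to 0.9804) without Gzma, and 1.038 (0.9706 to 1.11) when all 3 Cd3 genes were required, so its direction turns with the gate. In the NK gate the sum was 0.4922 (0.4172 to 0.5776), but 0.8459 (0.6774 to 1.048) without Gzma and 0.7227 (0.6097 to 0.8518) in barcodes with 2 or more gate UMIs.

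The members were found together in T-gated barcodes. At least 1 of the 8 was found in 79.1% (73.45 to 84.02) and 54.89% (48.29 to 61.37), at least 3 in 49.18% and 29.36%, and at least 5 in 23.36% and 10.21%. Thinned to 1500 UMIs, 22.54% and 11.91% had 3 or more, and 3.689% and 0.4255% had 5 or more. When all 3 Cd3 genes were required, the unthinned shares with 3 or more were 56.77% and 47.86%. Among CD8 barcodes, 94.66% and 97.06% had at least 1 and 71.76% (63.23 to 79.27) and 72.06% (59.85 to 82.27) at least 3. After thinning, 35.88% and 36.76% of CD8 barcodes had at least 3. Of all other kept barcodes only 3.961% and 3.16% had 1 or more, and 27 and 23 barcodes had 3 or more. Of those, 14 and 14 had 1 Cd3 gene, and together they held 22.92% and 13.5% of the 8 genes' UMIs outside the gates.

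**Figure D4:**
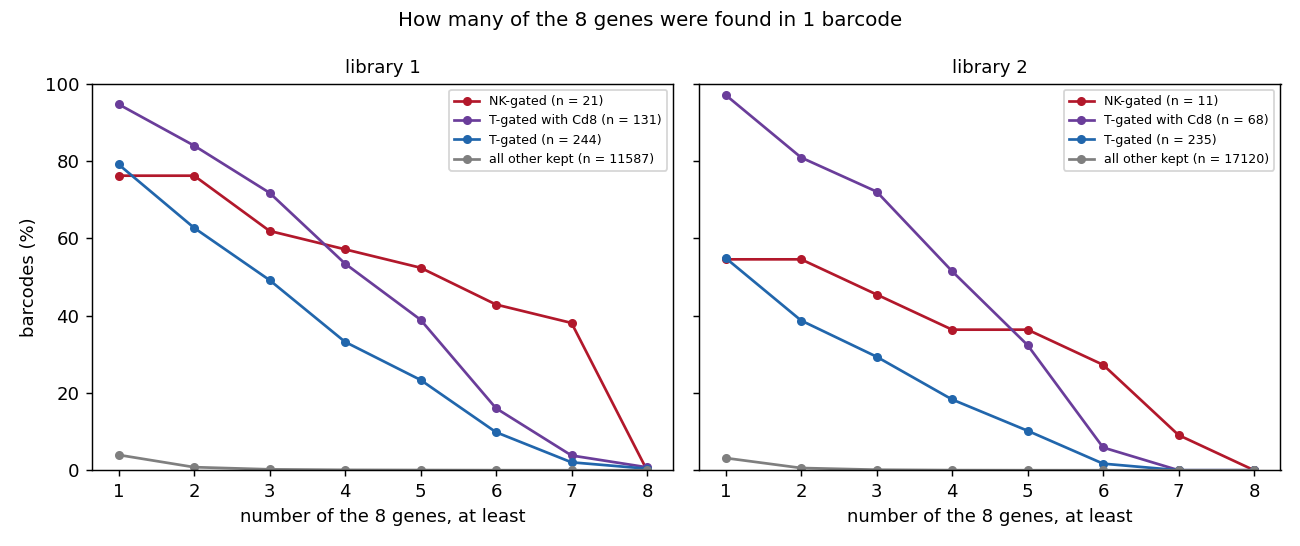
Percent of barcodes in which at least the given number of the 8 genes was found, for NK-gated, T-gated, T-gated CD8 and all other kept barcodes of each library. At 3 genes the CD8 curves stand at 71.76% and 72.06% and the other barcodes at 0.233% and 0.1343%. The barcodes are not thinned, and median depth differs between the sets.

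Nkg7 was found in most barcodes with an effector gene. All 66 T-gated barcodes with Gzmb in library 1 had Nkg7, and 21 of 24 in library 2, against 50% and 35.55% of the barcodes without Gzmb. Of the barcodes with Gzmb, 54 and 20 were CD8 barcodes, and Nkg7 was in 88.55% and 91.18% of all CD8 barcodes. A link of the 2 genes within CD8 barcodes was not tested. Of barcodes with Prf1, 31 of 33 and 22 of 22 had Nkg7, of those with Klrd1, 69 of 72 and 47 of 52, and of those with Gzma, 30 of 35 and 5 of 6. Gzmb and Prf1 shared fewer barcodes. Both were found in 19 and 7, Gzmb without Prf1 in 47 and 17, and Prf1 without Gzmb in 14 and 15. Prf1 rarely exceeded 1 UMI per barcode (27 of 33 and 14 of 22 had exactly 1), so absence of Prf1 at this depth does not show that a cell lacked it. After thinning, Gzmb and Nkg7 shared 28 of 33 and 11 of 12 barcodes with Gzmb.

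Interferon gamma transcripts were found both with and without the granule genes. Of T-gated barcodes with Gzmb, 34 of 66 and 12 of 24 had Ifng, of those with Prf1, 14 of 33 and 16 of 22, and of those with Gzma, 12 of 35 and 0 of 6. Nkg7 was in 87.32% and 81.36% of barcodes with Ifng. Ifng was found without any of Gzma, Gzmb and Prf1 in 31 of 71 and 34 of 59 Ifng-positive T-gated barcodes, and 45.16% and 47.06% of those had Cd8a or Cd8b1. Of barcodes with at least 1 of these 3 genes, 81.52% and 81.4% did. Tbx21 was found with Ifng in 30 and 26 barcodes, and without it in 38 and 17.

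Barcodes with the cell cycle genes Mki67 or Top2a were 36 and 36 of the T gate. There, Gzma was in 12 and 1, Gzmb in 16 and 7 and Prf1 in 2 and 8. Over the whole T gate of 244 and 235 barcodes, Gzma was in 35 and 6, Gzmb in 66 and 24 and Prf1 in 33 and 22. The barcodes with Mki67 or Top2a were deeper, at medians of 6068 and 6100 against 4912 and 3973 UMIs. Gzma's level was 308.5 CPM in those of library 1, against 215.7 CPM over its T gate and 322.6 CPM in its CD8 barcodes. A link of these genes with cycling was not tested. The few barcodes with Foxp3, the regulatory T cell factor (5 and 3), held 0 UMIs of Gzma and Prf1 in both libraries, and Gzmb was in 0 and 2 of them.

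Klrd1 was the only member of the 8 with most of its UMIs outside the lymphocyte gates in both libraries. Its level in all other kept barcodes was 5.42 CPM (4.945 to 5.928) and 3.266 CPM (2.887 to 3.68), with 478 and 269 UMIs. Part of it lay in barcodes with dendritic cell genes. In the 92 and 56 barcodes outside the gates that had Cd209a, a lectin gene of monocyte-derived dendritic cells, and 3 or more MHC class II genes, Klrd1 stood at 287.1 CPM (250.5 to 327.6) and 318.4 CPM (259.8 to 386.1), which is not below its level in T-gated or NK-gated barcodes. It was found in 46.74% and 46.43% of them. They held 46.23% and 38.29% of the Klrd1 UMIs outside the gates. In the 49 and 24 barcodes with 3 or more of 7 dendritic markers the level was 203 and 142 CPM. In the 16 and 5 with 2 or more of Xcr1, Clec9a and Flt3, genes of cross-presenting dendritic cells, it was 105.1 and 144.4 CPM. In the 30 and 13 with Ccr7 and Fscn1, genes of migrating dendritic cells, it was 45.13 and 52.93 CPM. In barcodes of none of these groups and without Cd209a, Clec9a and Xcr1 it was 2.109 and 1.696 CPM. Since these barcodes numbered 11325 and 16994, they held 37.66% and 51.3% of the Klrd1 UMIs outside the gates. These groups were drawn up after values were seen.

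**Figure D5:**
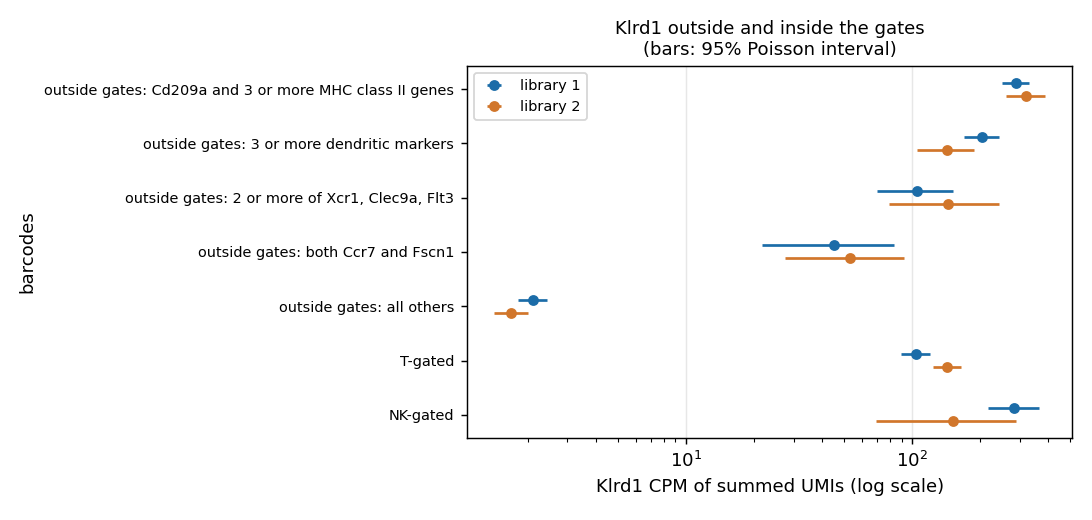
Klrd1 level, as CPM of summed UMIs on a log axis with 95% Poisson intervals, in groups of barcodes outside the gates and in the T and NK gates of library 1 (blue) and library 2 (orange). Barcodes with Cd209a and MHC class II genes stand at 287.1 and 318.4 CPM, and barcodes in none of the dendritic groups at 2.109 and 1.696 CPM.

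The remaining 7 members had 2 and 6 UMIs in all over the 92 and 56 barcodes with Cd209a and MHC class II genes. These lay in 2 and 3 barcodes, while Klrd1 had 221 and 103 UMIs over the same sets. The 92 barcodes of library 1 were deep (median 8610 UMIs) and the 56 of library 2 less so (3128). The intervals of the 2 Klrd1 levels overlapped. Barcodes outside the gates with 3 or more Klrd1 UMIs, taken after the values were seen, numbered 50 and 23, and 94% and 100% of them had 3 or more MHC class II genes, against 11.2% and 10.85% of barcodes without Klrd1. Their median depth was higher, at 12302 and 10355 against 3162 and 2427 UMIs. Thinned to 1500 UMIs each, the shares were 92% (80.77 to 97.78) and 91.3% (71.96 to 98.93) against 7.457% and 7.482%. Their leading genes by fold included Ifitm1, Napsa, Cytip, Cd209a, Il1r2 and H2-Ab1 in both libraries. Klrd1 stood at 1.014 and 1.381 CPM in macrophage-marked and at 1.42 and 1.424 CPM in fibroblast-marked barcodes, found in 0.7371% and 0.5451% of the latter.

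The genes that work beside the members were read from lists of granule contents, release machinery, cytokine pathway, transcription factors, receptors, chemokines and checkpoint genes. Counts of their members at least 1.5-fold apart between libraries in the T gate stand against the 10.4% of all tested genes that were higher in library 2 and the 7.39% that were lower. Srgn, the proteoglycan that packs granzymes, stood at 1332 and 1294 CPM in T-gated and 1183 and 1223 CPM in NK-gated barcodes, and was also found in other cells at 365.9 and 196.9 CPM. Serpinb9, the granzyme B inhibitor that protects killer cells, was at 90.88 and 43.6 CPM in the T gate and 184.9 and 134.1 CPM in the NK gate. Gzmk, a further granzyme gene, was found mainly in the T gate, at 82.26 and 41.38 CPM and in 78 and 34 barcodes, of which 36 and 12 also had Gzmb. It had 2 and 0 UMIs in the NK gate, and is named here after its values were seen. Serpinb6b, a related inhibitor gene, was likewise higher in the NK gate, at 282 and 335.2 CPM against 123.1 and 69.46 CPM in the T gate. Lamp1, a lysosome membrane gene, stood at 120.8 and 150.7 CPM in the T gate and 189.5 and 117.3 CPM in the NK gate. Of 15 granule content genes 8 were tested, with 1 higher and 3 lower in library 2 (all genes 10.4% and 7.39%). Of 12 genes of granule transport and release, 9 were tested between libraries in the T gate, and 0 reached 1.5-fold in either direction. Vamp8, a vesicle fusion gene, stood at 123.7 and 172.9 CPM in the T gate and 97.08 and 100.6 CPM in the NK gate, and at 141.2 and 138.9 CPM in all other barcodes. Rab11a, a gene of endosome transport, stood at 117.3 and 98.28 CPM in the T gate and 129.4 and 100.6 CPM in the NK gate, and Ap3b1, a subunit gene of a lysosomal sorting complex, at 104.7 and 115.3 against 111 and 117.3 CPM. Lyst, a gene of lysosome trafficking, stood at 106.4 and 94.59 CPM in the T gate and at 41.61 and 167.6 CPM in the NK gate, on 9 and 10 UMIs.

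Among transcription factors, 12 of 12 were tested in the T gate, with 4 higher and 2 lower in library 2 (all genes 10.4% and 7.39%). Runx3 stood at 136.9 and 187 CPM in the T gate and 490 and 352 CPM in the NK gate, Id2 at 356.1 and 544.6 against 688.8 and 636.9 CPM, and Txk, a kinase gene of T and NK cells, at 105.8 and 68.72 against 272.8 and 419 CPM. Zeb2, a factor of mature killer cells that was also found in other barcodes at 327.2 and 284 CPM, was at 176.6 and 223.2 against 328.2 and 586.6 CPM. Eomes, the T-box factor related to T-bet, named after its values were seen, was at 64.42 and 27.34 against 36.98 and 33.52 CPM. The chemokine gene Ccl5 was high in both gates, at 4167 and 3089 CPM in T-gated and 3513 and 3319 CPM in NK-gated barcodes. Ccl4, a chemokine gene that macrophages also express, stood at 421.6 and 441.9 CPM in T-gated and 138.7 and 1006 CPM in NK-gated barcodes. Xcl1 was lower in the T gate of library 2, at 145.5 and 41.38 CPM, and Cxcr6, a receptor of tissue-resident T cells, was higher, at 111 and 238.7 CPM. Of 10 chemokine and receptor genes 8 were tested, with 2 higher and 3 lower (all genes 10.4% and 7.39%). Of 13 tested genes of the death ligand and interferon gamma pathway, 2 were higher and 1 lower, near those shares of all genes. Il2rb, the receptor chain that interleukins of T and NK cell growth share, stood at 210 and 294.1 CPM in the T gate and 332.9 and 368.7 CPM in the NK gate, and Ifngr1, the interferon gamma receptor, at 505.6 and 342.1 against 429.9 and 251.4 CPM. The kinase gene Jak1 was at 451 and 410.9 against 346.7 and 318.4 CPM, and Stat4, a transcription factor gene of interleukin 12 signalling, at 287.6 and 232.8 against 245 and 217.9 CPM. Of 26 NK receptor and adaptor genes only 10 had enough UMIs to be tested between libraries, with 3 higher and 2 lower (all genes 10.4% and 7.39%). Klrk1, which encodes the activating receptor NKG2D, stood at 81.68 and 99.76 CPM in the T gate and 258.9 and 419 CPM in the NK gate, and Hcst, the gene of its adaptor, at 331.9 and 253.5 against 147.9 and 117.3 CPM.

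Of the 8 checkpoint and residency genes tested, 5 were at least 1.5-fold higher in the T gate of library 2 and 0 lower, with a list median of 1.582 against 1.028 over all genes and the 10.4% background. Ctla4 was at 126.5 and 204.7 CPM, Tox, a factor of exhausted T cells, at 271.5 and 419.7 CPM, and Cd69 at 205.4 and 333.3 CPM. Lag3 (9.204 and 66.51 CPM) and Havcr2 (27.04 and 77.59 CPM), named after their values were seen, were higher too. The other 3 did not reach 1.5-fold: Pdcd1, which encodes PD-1, was at 115 and 136.7 CPM (ratio 1.188), Tigit at 20.13 and 29.56 CPM (1.468), and the integrin gene Itga1 at 92.61 and 64.29 CPM (0.6942). In the same barcodes Fcer1g, a gene that T cells mostly lack, stood at 40.27 and 91.63 CPM.

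Genes with a profile like that of the members were sought over 12 points, the T-gated subsets, the NK gate and the other barcodes of each library, by Pearson correlation of log2(CPM + 10) with the members' mean among 7836 genes. The points share libraries and depth, and 3 barcodes make up 2 of them. Runx3 came first (r = 0.95), then Ccl5 (0.89), and the list of 10 went on with Dusp2, Rbm3, Itga4, Epsti1, Lrmp, Cd7 and the NK receptor genes Klre1 and Klrc1, down to 0.86. Only Runx3 and Ccl5 stayed among the first 10 when those 2 points were left out. Measured against the mean of the other 7, the members themselves ranged from 0.70 for Gzma and 0.72 for Ifng to 0.88 for Gzmb and Nkg7.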

How the data were processed

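For both samples together the authors deposited 1 matrix of raw UMI counts per gene and barcode, unfiltered. Its header names Cell Ranger 6.0.1, and bcl2fastq, Seurat and the build mm10 come from the submitters' processing notes. Nothing further was stated about alignment or filters. Of 32285 gene identifiers, 32235 were found in the GENCODE annotation of GRCm38 (mm10). The barcode suffix gives the library. UMIs were summed over the barcodes of a gate and divided by their total (CPM). No doublet caller was run, and leaving out barcodes with marker genes of other cells was an alternative. Groups marked for a cell type outside the gates needed 3 or more genes of its list (macrophages 4). The fibroblast-marked, smooth muscle marked and macrophage-marked groups also had no Cd3 gene, Ncr1 or Klrb1c.

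Intervals at 95% are Poisson for CPM, Clopper-Pearson for shares and conditional binomial for ratios. Ratios of 1.5-fold or more were counted among genes with at least 50 UMIs in the compared sets together. Where a count was 0, 3 counts served as the limit. Thinning drew 1500 UMIs per barcode without replacement (seed 1). The calculation of the ratio between libraries in the T gate was checked on simulated counts of 1472 genes with 200 changed. There, 95.24% of intervals held the true ratio, and 100% of the changed genes were recovered. The counts were drawn from the Poisson model that the intervals assume, with changes set at 3-fold, for genes with at least 200 UMIs in library 1. Prf1, Tbx21 and Klrd1 had fewer. Uneven spread over barcodes was not simulated, so the check does not bear on it. All 8 members are named. From each companion list, up to 4 genes of highest CPM in either gate are named, with those past 1.5-fold between libraries in the same direction in both gates, and other genes are said to be chosen after their values were seen. The members and lists were chosen with earlier results of these data known. Gates, depth, thinning and mixed barcodes were varied as alternatives. Python 3.11.15, numpy 2.4.6, pandas 2.3.3, scipy 1.17.1 and matplotlib 3.10.9 were used.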

Additional observations from a re-analysis of the deposited data

Results flagged for a closer look

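Barcodes with 10 to 100 UMIs, too few to be kept as cells, entered no comparison between gates or libraries, and several of the 8 genes had more than 3 UMIs in them. In the 65270 such barcodes of library 1, Gzma stood at 8.832 CPM, Nkg7 at 7.066 CPM, Ctsw at 4.416 CPM, Ifng at 3.975 CPM, and Gzmb and Klrd1 at 3.091 CPM each. In the 39379 such barcodes of library 2, Nkg7 stood at 16.22 CPM, Klrd1 at 5.192 CPM, Gzmb at 3.245 CPM and Ifng at 2.596 CPM. There are no control samples for these barcodes, and a value above 3 UMIs is above the limit that a count of 0 allows.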

How the results depend on the processing

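No paired analysis was possible because each sample is 1 library, and neither library is tied to a sample. Leaving out a replicate could not be done for the same reason. A limit of 10% mitochondrial UMIs, or leaving out barcode sequences kept in both libraries, moved no summed result beyond its interval. In what follows, share means the percent of the 8 genes' UMIs inside the gates (77.79 and 66.16), NK ratio the NK to T ratio (3.722 and 2.28), and T and NK library ratio library 2 over library 1 (0.8034 and 0.4922). A minimum of 1000 UMIs gave shares of 73.88% and 58.65%, and one of 3000 UMIs 83.42% and 80.09% with a T library ratio of 0.8561. With all 3 Cd3 genes required, shares were 66.3% and 56.82%, the NK ratio in library 2 was 1.706 and the T library ratio 1.038, on the other side of 1. With 1 or more Cd3 genes they were 82.69% and 76.28%, NK ratios 5.6 and 4.193 and the T library ratio 0.6573. With Ncr1 needed, the library 1 share was 69.47%, the library 2 NK ratio 2.851 and the NK library ratio 0.6167. Thinning to 1500 UMIs gave shares of 69.74% and 49.86%, an NK ratio of 4.472 in library 1 and library ratios of 0.64 (T) and 0.2838 (NK). Without barcodes holding 2 or more genes of a non-lymphoid list, which left 101 and 61 T-gated and 6 and 3 NK-gated barcodes, shares were 59.78% and 40.41%, the library 1 NK ratio 3.436 and the NK library ratio 0.6044. The remaining settings were chosen after seeing the data. NK barcodes with 2 or more gate UMIs gave NK ratios of 5.152 and 4.635 and an NK library ratio of 0.7227. Without the richest barcode of each gate, NK ratios were 3 and 1.311, shares 75.81% and 63.97% and the NK library ratio 0.3495. Without Gzma, NK ratios were 1.532 and 1.408, the library 1 share 74.82% and the library ratios 0.9206 (T) and 0.8459 (NK). The cause of these shifts was not tested.

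Of 770 values of single genes under other settings, 610 stayed within their interval, 153 left it and 7, each a ratio of 1.5-fold or more, turned to the other side of 1. The NK library ratio of Klrd1 was 1.193 after thinning and 1.279 without the mixed barcodes, which also turned the library 2 NK ratio of Ctsw to 0.6051. Without the barcode richest in the 8 genes, or in Ifng, the library 2 NK ratio of Ifng was 0.5849, and without the barcode richest in each gene, a setting also chosen after seeing the data, those of Prf1 and Ctsw were 0.6213 and 0.9299. Counts of all genes at least 1.5-fold apart followed the minimum of UMIs required. With 20 in place of 50, genes higher in the NK gate were 1577 and 1829 (849 and 890), genes lower 2447 and 2968 (1390 and 1577), and genes in the T gate of library 2 higher 1494 (788) and lower 1024 (558). With 200 they were 194 and 137, 348 and 342, 221 and 120. In the NK gate of library 2, with 11 barcodes, Prf1 and Tbx21 had only 4 and 3 UMIs.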

Other observations

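Some genes of the companion lists also differed between the libraries in both gates, by 1.5-fold or more in the same direction, with few UMIs in the NK gate. No share of all genes past this rule is given, so their number cannot be weighed. Cxcr6, Ctla4 and Tox, described above, were among them as higher in library 2. Their UMIs in NK-gated barcodes were 1 and 4, 2 and 2, and 7 and 5. S1pr1, the receptor through which lymphocytes leave tissue, stood at 88.01 and 39.16 CPM in T-gated and 101.7 and 67.04 CPM in NK-gated barcodes. It was also found in all other barcodes, at 85.54 and 24.15 CPM. Endothelial cells express S1pr1 too, and their part in these levels was not tested. Ccl3, a chemokine gene, was at 85.71 and 158.9 CPM in T-gated and 64.72 and 184.4 CPM in NK-gated barcodes. Cx3cr1, a chemokine receptor of circulating killer cells and of macrophages, was at 11.5 and 19.95 CPM and at 9.246 and 150.8 CPM, the last from 9 UMIs. Macrophage markers rose in the same order in the NK gate, from 795.2 to 3084 CPM, and their part in the Cx3cr1 value was not tested. Cd160, a receptor gene of NK and CD8 T cells, was at 20.71 and 11.82 CPM in T-gated and 27.74 and 16.76 CPM in NK-gated barcodes. Of the NK receptor genes, Klri2 was lower in library 2, with 3 and 1 UMIs in T-gated and 26 and 3 in NK-gated barcodes. Klrb1f was higher there by CPM, with 3 and 5 UMIs in T-gated and 4 and 4 in NK-gated barcodes. Itgam, an integrin gene of myeloid and NK cells, was higher there too, with 6 and 12 UMIs in T-gated and 8 and 13 in NK-gated barcodes.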
